A study of Mus musculus with 22 samples.

Results

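The genes described here carry serotonin from synthesis to breakdown. They were 8 genes chosen by symbol: Tph1, Tph2, Ddc, Slc6a4, Slc18a2, Maoa, Maob and Fev. The platform annotation gave 7 of them a probe set of their own, and each of these had 1 probe set among the 18820 genes measured. Fev, the transcription factor of serotonin neurons, had none in the pairing used and was not analysed here. No measured value was used to choose the genes.

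Each of 22 arrays held hypothalamic RNA of a single male C57BL/6 mouse. Tumour-bearing mice carried Lewis lung carcinoma, a mouse tumour line that is passed from animal to animal, grown from cells placed in a hind leg muscle. There were 5 such mice killed on day 10, 7 on day 14 and 6 on day 17 after inoculation, and 4 control mice killed on day 14. The title of the series concerns food intake and hypothalamic serotonin signalling. All mice ate freely, lived alone in their cages and were under ketamine and xylazine at dissection. As controls were of day 14 alone, tumour and day differ together in the contrasts of days 10 and 17, and all 3 contrasts use the same 4 controls. The labels do not say what the controls were injected with.

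Serotonin is made from tryptophan by a hydroxylase, encoded by Tph1 mainly in peripheral and pineal cells and by Tph2 in neurons, and by the decarboxylase encoded by Ddc. The vesicular transporter encoded by Slc18a2 packs it into vesicles, the plasma membrane transporter encoded by Slc6a4 takes it back up, and the monoamine oxidases encoded by Maoa and Maob break it down. The cell bodies of brain serotonin neurons lie in the raphe nuclei of the brainstem and send axons to the hypothalamus, which hold little of the neurons' mRNA. Ddc, Slc18a2 and the oxidases are shared with dopamine and noradrenaline neurons, and Slc18a2 and Maob also mark histamine neurons, which lie in the hypothalamus itself.

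Values are log2 values of the authors' RMA processing, and array medians ran from 5.27 to 5.34. As a measure of background, 1182 probe sets of olfactory and vomeronasal receptors were used, genes that the brain region should hardly express; the 95th percentile of their means was 3.87, and 73.3% of all genes lay above it. Of 11 measured hypothalamus markers, 10 lay above the measure, among them Hcrt, Avp and Nkx2-1, and Crh lay below it. The mean of the 11 per mouse was 7.43 ± 0.10 in controls (SD). On tumour days 10, 14 and 17 it was 7.27 ± 0.08, 7.46 ± 0.07 and 7.37 ± 0.09. Differences were positive for 4, 5 and 5 of the 11. Of them limma called 0, 1 and 1, against 0.106%, 0.218% and 1.12% of all genes. The called gene was Ghrh, higher by 0.69 on day 14 and 0.70 on day 17 (limma adjusted p = 0.011 and 0.0069). Markers of thalamus, a neighbour of the hypothalamus, averaged 7.30 ± 0.23 on tumour day 10, 7.31 ± 0.31 on day 14 and 7.24 ± 0.23 on day 17, against 7.70 ± 0.54 in controls (SD, mean of 9 genes per mouse). All 9 genes had lower means in tumour-bearing mice on each day, with list medians of -0.34, -0.39 and -0.43. Of the 9, limma called 0 on each day, against 0.106%, 0.218% and 1.12% of all genes on days 10, 14 and 17. At an unadjusted limma p below 0.05, 3, 1 and 4 of 9 passed, against 10.7%, 10.5% and 16.6% of all genes. At that level 4, 2 and 3 of the 11 hypothalamus markers passed.

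The serotonin genes fell into 2 kinds by signal. Tph1, Tph2 and Slc6a4, the genes whose products are specific to serotonin cells, lay 0.78, 0.74 and 0.79 below the background measure on average and were above it on 0 of 22 arrays. None was within 0.5 of the measure, so all 3 were at or under the level of receptors used as background. Ddc, Slc18a2, Maoa and Maob, whose products handle several amines, lay 3.95, 4.12, 3.59 and 4.35 above it and were above it on 22 of 22 arrays. A mean below the background measure does not show that an mRNA was absent, since probe sets differ in brightness at the same mRNA level. In the plot of all values by gene and group, the 2 kinds are separated by the dashed line.

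**Figure D1:**
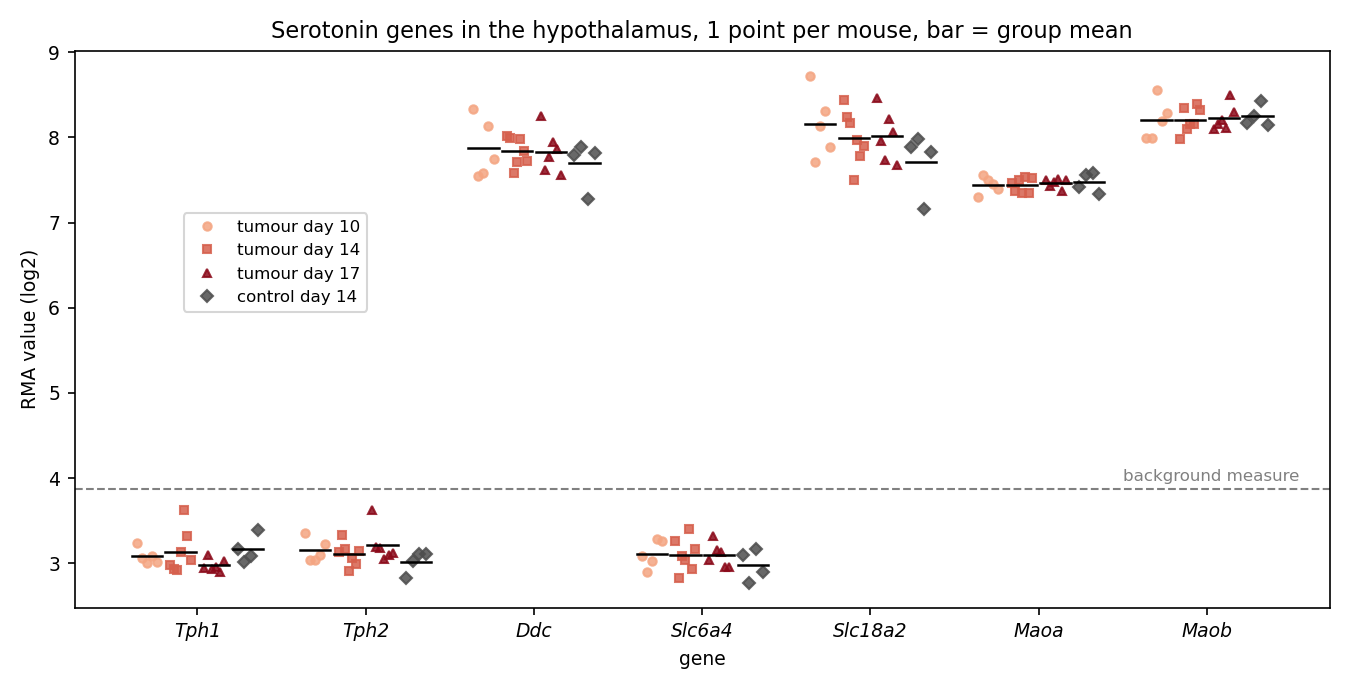
Log2 RMA value (vertical axis) of the 7 measured serotonin genes (horizontal axis) in each mouse, by tumour day 10, 14 and 17 and control, with a bar at each group mean and a dashed line at the background measure of 3.87. Tph1, Tph2 and Slc6a4 lie under the line in all 22 mice, and the other 4 genes lie far above it.

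Against control, limma called 0 of the 7 genes for tumour day 10, 0 for day 14 and 0 for day 17 with p-values adjusted by the Benjamini-Hochberg method and a threshold of 0.05. The shares called among all genes were 0.106% for day 10, 0.218% for day 14 and 1.12% for day 17, and 0 of 7 is close to each of them. At an unadjusted p below 0.05, 1 of 7 passed on day 10, 0 on day 14 and 0 on day 17, against 10.7%, 10.5% and 16.6% of all genes. With the 3 tumour groups averaged, 0 of 7 were called and 0 passed unadjusted, against 0.643% and 14.8% of all genes. The median difference of the 7 genes was 0.13 on day 10, 0.09 on day 14 and 0.11 on day 17, beside medians over all genes of 0.0006, -0.0046 and -0.011. In bulk tissue, fewer or more cells of a type and less or more RNA per cell cannot be told apart. The difference was positive for Tph2, Ddc, Slc6a4 and Slc18a2 on each day and negative for Tph1, Maoa and Maob. No gene's tumour values lay wholly outside the control values on any day, an event that held for 4.45%, 1.84% and 4.96% of all genes on days 10, 14 and 17.

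Of the synthesis genes, Tph1 encodes the hydroxylase of pineal gland and periphery. Its values on tumour day 10 were 3.24, 3.06, 3.00, 3.09 and 3.02, and those in controls were 3.17, 3.01, 3.08 and 3.40. On tumour day 14 they ran from 2.93 over a median of 3.04 to 3.63, and on day 17 from 2.90 over 2.95 to 3.10. All 4 groups overlapped, all under the background measure, and the day 17 difference of -0.19 ± 0.11 was the widest (SE, log2, limma adjusted p = 0.368). Other genes of the pineal gland, Aanat, Crx, Gngt1 and Sag, also had means below the measure, as 0 of 5 measured pineal markers lay above it.

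Tph2 encodes the hydroxylase of brain serotonin neurons and is the gene most often taken to mark them. It read 3.35, 3.04, 3.04, 3.10 and 3.22 on tumour day 10, against 2.83, 3.03, 3.11 and 3.11 in controls. On tumour days 14 and 17 its medians were 3.13 (2.91 to 3.34) and 3.15 (3.05 to 3.62). The highest value, 3.62 in 1 mouse of day 17, was still under the background measure, and the groups overlapped on every day. The interval of the day 17 difference ran from -0.01 to 0.39 (95%, limma adjusted p = 0.334). As the signal was at background, no difference in Tph2 mRNA could be read from this probe set, and equal levels are not shown.

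Slc6a4, the serotonin reuptake transporter and the other defining gene of serotonin neurons, read 3.09, 2.90, 3.03, 3.29 and 3.26 on tumour day 10 and 3.10, 2.78, 3.17 and 2.90 in controls. Its medians on tumour days 14 and 17 were 3.09 (2.83 to 3.40) and 3.09 (2.95 to 3.32). The groups overlapped, with the lowest value of all in a control and each tumour group reaching above the highest control. Its differences from control, between 0.11 and 0.13 on the 3 days, were smaller than its spread within groups, an SD of 0.17. Of the raphe neuron markers measured, Gata3 lay below the measure as well, with a mean of 3.41, and 1 of 4, the homeobox gene Lmx1b, lay above it with a mean of 4.88. The mean of these 4 markers per mouse ran from 3.54 to 3.86 on tumour day 10, from 3.39 to 3.75 on day 14 and from 3.57 to 3.93 on day 17, against 3.48 to 3.57 in controls. That mean joins Lmx1b to Tph2, Slc6a4 and Gata3, which were below the measure, so no difference in serotonin neurons can be read from it. The cells behind the Lmx1b signal were not tested.

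Ddc encodes aromatic amino acid decarboxylase, the last step in making both serotonin and dopamine. It read 8.33, 7.55, 7.58, 8.14 and 7.75 on tumour day 10, against 7.79, 7.89, 7.27 and 7.82 in controls. The median was 7.84 on tumour day 14, in values from 7.58 to 8.02, and 7.82 on day 17, in values from 7.55 to 8.24. One control, replicate 3, was the lowest of all 22 mice, and the rest of the controls lay inside the range of each tumour group. The differences from control were 0.18 ± 0.16 on day 10, 0.14 ± 0.15 on day 14 and 0.14 ± 0.15 on day 17 (SE, limma adjusted p = 0.721, 0.775 and 0.687). Without that control they were 0.037, 0.0016 and 5.7e-05.

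Slc18a2 encodes the vesicular monoamine transporter of the brain. On tumour day 10 it read 8.72, 7.71, 8.14, 8.31 and 7.89, against 7.88, 7.98, 7.16 and 7.83 in controls. On tumour day 14 it ran from 7.50 over a median of 7.97 to 8.44, and on day 17 from 7.68 over 8.01 to 8.47. Control replicate 3 was again the lowest of all mice, and the tumour groups reached above the highest control while their lower mice lay among the controls.

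Its differences from control were the widest of the 7 genes, at 0.44 ± 0.21 on day 10, 0.28 ± 0.19 on day 14 and 0.30 ± 0.20 on day 17 (SE, limma adjusted p = 0.457, 0.634 and 0.458). Only day 10 passed an unadjusted p of 0.05, at 0.0443, with a 95% interval from 0.01 to 0.87. Averaged over the 3 tumour groups the difference was 0.34 ± 0.17, a ratio of 1.27 with an interval from 0.992 to 1.62 (limma adjusted p = 0.354). Without control replicate 3, the averaged difference was 0.16, and 0.26, 0.10 and 0.12 on days 10, 14 and 17. The interval plot shows how far each gene's estimate lay from 0.

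**Figure D2:**
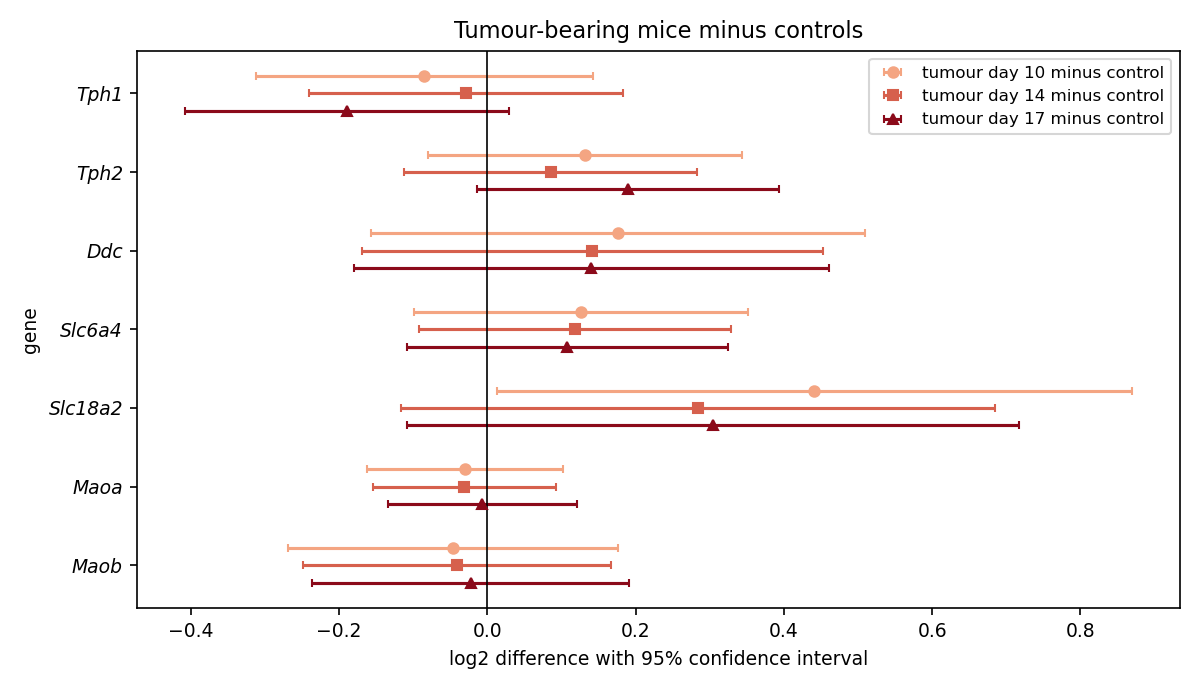
Log2 difference, tumour-bearing mice minus controls (horizontal axis), for each serotonin gene (vertical axis) on tumour days 10, 14 and 17, with 95% confidence intervals from the limma fit. The interval of Slc18a2 on day 10, from 0.01 to 0.87, is the 1 interval of the 21 that lies off 0.

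Of the breakdown genes, Maoa encodes the oxidase that prefers serotonin and noradrenaline. It read 7.30, 7.56, 7.50, 7.45 and 7.39 on tumour day 10, against 7.41, 7.56, 7.59 and 7.33 in controls. On tumour days 14 and 17 its medians were 7.47 (7.35 to 7.54) and 7.49 (7.37 to 7.52). Maoa was the steadiest of the 4 genes above background, with an SD within groups of 0.09. Its differences from control were -0.030, -0.031 and -0.0067 on days 10, 14 and 17, and the 95% intervals of all 3 lay between -0.16 and 0.12.

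Maob encodes the oxidase found mainly in glia, in serotonin neurons and in histamine neurons. On tumour day 10 it read 7.99, 7.99, 8.55, 8.19 and 8.29, against 8.17, 8.25, 8.42 and 8.15 in controls. Its medians on tumour days 14 and 17 were 8.16 (7.98 to 8.39) and 8.18 (8.09 to 8.500). The groups overlapped, and the differences of -0.047, -0.041 and -0.022 had intervals between -0.27 and 0.19. In the RefSeq annotation Maoa and Maob are next to each other on chromosome X with 0 genes between them, and their values did not go together from mouse to mouse (Pearson's r = 0.0059 over 22 mice, group means removed).

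Between tumour days, limma called 0 of 7 genes in each of the 3 comparisons. Of all genes, 0.00531% were called for day 14 against day 10, 0.00% for day 17 against day 10 and 0.00% for day 17 against day 14. At an unadjusted p below 0.05, 0 of 7 passed in each, against 7.13%, 8.30% and 4.17% of all genes. The widest of these differences were -0.16 for Slc18a2 on day 14 against day 10, -0.14 for Slc18a2 on day 17 against day 10 and -0.16 for Tph1 on day 17 against day 14. An F test over the 4 groups called 0 of 7, against 0.335% of all genes, and 0 passed unadjusted, against 11.8%. In order of group means, Slc18a2, Ddc, Tph2 and Slc6a4 were lowest in controls, and Tph1, Maoa and Maob were highest there. For all 7 genes, every step between neighbours in that order was smaller than the SD within groups, the widest being 0.84 of an SD, for Slc18a2. From lowest to highest group mean, the range exceeded that SD for Slc18a2 (0.44 against 0.34), Tph2 (0.19 against 0.16) and Tph1 (0.19 against 0.17). It did not for Ddc, Slc6a4, Maoa and Maob. That SD is the spread of single mice and not the error of a group mean.

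What set Ddc and Slc18a2 apart was their spread among mice of the same group. Over all mice the highest value was 2.08 times the lowest for Ddc and 2.95 times for Slc18a2, against 1.22 times for Maoa and 1.48 times for Maob. The SD within groups was 0.34 for Slc18a2, exceeded by 14 of the 2642 genes with a mean within 0.5 of its own. It was 0.26 for Ddc, exceeded by 26 of 2704 such genes, 0.17 for Maob, exceeded by 108 of 2501, and 0.09 for Maoa, exceeded by 1954 of 2917. The mice high in Ddc were those high in Slc18a2. With group means removed, Pearson's r was 0.81 and Spearman's rank correlation 0.81 over 22 mice (permutation test, two-sided, p = 3e-05 and 2e-05, and 0.00063 and 0.00042 adjusted over the 21 pairs of genes). Without the 2 mice farthest from the median of Ddc, r was 0.73 (permutation p = 0.00032). In the order of deposit the samples form 2 runs, each holding all 4 groups, and the labels name no batch. Within the first 9 samples r was 0.84, and within the other 13 it was 0.79. Replicate 1 was the highest mouse of each tumour group in both genes. On tumour days 10, 14 and 17 it read 8.33, 8.02 and 8.24 for Ddc and 8.72, 8.44 and 8.47 for Slc18a2. In controls replicate 2 was the highest in both. The permutation test took the 22 mice as separate, and whether same-numbered mice belong together cannot be decided here.

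**Figure D3:**
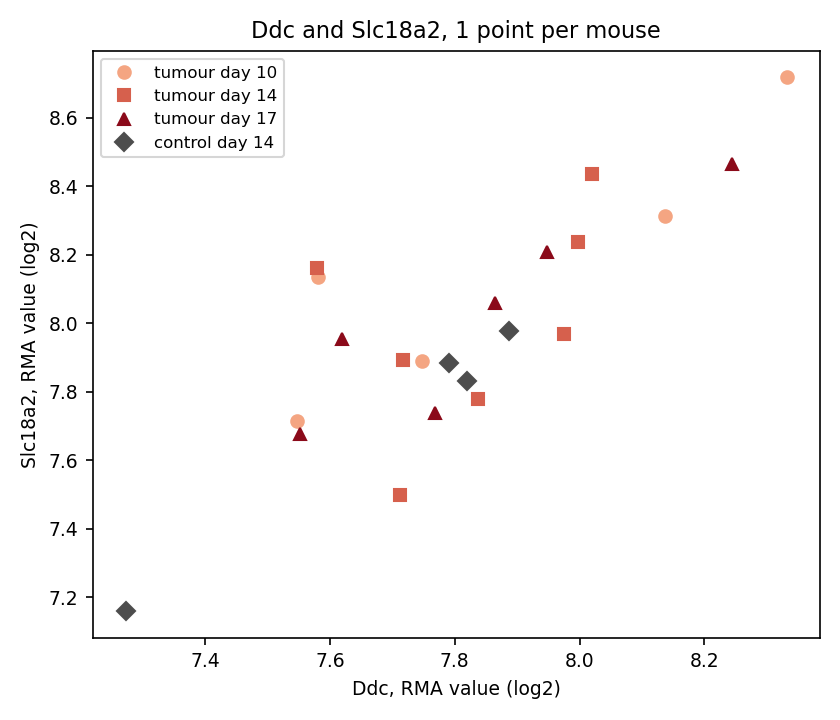
Log2 RMA value of Slc18a2 (vertical axis) against that of Ddc (horizontal axis), 1 point per mouse, marked by group. Mice of all 4 groups lie along 1 rising band, from the control mouse at 7.27 and 7.16 to the tumour day 10 mouse at 8.33 and 8.72.

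No other pair of the 7 genes passed after adjustment, and their r ran from -0.39 to 0.47 over 20 pairs. Tph2 went with Slc18a2 at r = 0.47 and with Ddc at r = 0.42 (permutation p = 0.0255 and 0.0493, adjusted over the 21 pairs 0.268 and 0.318). Those r were 0.63 and 0.67 within the first 9 samples and -0.0063 and -0.085 within the other 13, so neither held within both runs. Tph2 and Slc6a4, the 2 serotonin neuron genes, had an r of -0.05. Both were at background, where the variation of a probe set need not be that of its mRNA.

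The genes most like Ddc in their variation included Th and Slc6a3, which define dopamine neurons. Among 13789 other genes above background, the highest r with Ddc were those of Th, tyrosine hydroxylase (0.84), Slc6a3, the dopamine transporter (0.82), Slc18a2 (0.81), Aldh1a1, a retinaldehyde dehydrogenase (0.78), and Chrna6, a nicotinic receptor subunit (0.78). For Slc18a2 they were Rnf144b, a ubiquitin ligase gene (0.85), Aldh1a1 (0.84), Slc10a4, a transporter of synaptic vesicles (0.81), Ddc (0.81) and Chrna6 (0.81). Th and Slc6a3 came at ranks 6 and 7 for Slc18a2, with r of 0.80 and 0.80. Within the 2 runs, r of Ddc with Th was 0.95 and 0.67, and that of Slc18a2 with Aldh1a1 was 0.94 and 0.64. These r were taken over the same 22 arrays and are a description, chosen as the highest of many.

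Slc6a3 itself varied far more than either gene. It read 10.28, 6.48, 6.48, 9.32 and 8.62 on tumour day 10, against 8.77, 8.73, 6.26 and 6.14 in controls. On tumour day 14 it ran from 5.78 over a median of 6.36 to 9.53, and on day 17 from 6.05 over 7.44 to 9.77. Of the 22 mice, 10 lay below 6.6 and 10 above 8.4, and each group had mice on both sides. Replicate 1 was the highest of each group, at 10.28, 9.53 and 9.77 on tumour days 10, 14 and 17 and 8.77 in controls. The count above 8.4 was 3 of 5 on tumour day 10, 3 of 7 on day 14 and 2 of 6 on day 17, against 2 of 4 in controls. Th had the same pattern with a smaller span, from 7.67 to 9.42 over all mice.

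Hdc, histidine decarboxylase, defines histamine neurons. Over 22 mice it had an r of -0.35 with Ddc and -0.06 with Slc18a2, as the plot of both genes against Slc6a3 and Hdc shows. Within the first 9 and the other 13 samples, r with Ddc was -0.61 and -0.013, and r with Slc18a2 was -0.29 and 0.34, which differ in sign. Its differences from control were 0.24 ± 0.18, 0.43 ± 0.17 and 0.35 ± 0.18 on days 10, 14 and 17 (SE, limma adjusted p = 0.667, 0.373 and 0.324). Other histamine neuron markers did not all follow it. The list of 5, which holds Hdc, Slc18a2 and Maob, had median differences of 0.087, -0.0058 and 0.13. Of the 5, 4, 2 and 4 were positive. Hcrtr2 and Wif1 differed by -0.0058 and -0.013 on day 14. Markers of dopamine neurons, a list of 6 measured genes that holds Ddc and Slc18a2 themselves, were above background for 6 of 6, and their mean per mouse ran from 7.20 to 8.44 on tumour day 10, from 7.18 to 8.20 on day 14 and from 7.16 to 8.22 on day 17, against 7.09 to 7.85 in controls. With the mean of Th and Slc6a3 as a covariate, added after seeing the data, the averaged difference of Slc18a2 was 0.31 (limma adjusted p = 0.180). It was 0.34 without the covariate (limma adjusted p = 0.354). Th and Slc6a3 were known to vary with Slc18a2 in these same mice, so a smaller spread and p with the covariate follow from that choice. The part of dopamine neurons in the difference of Slc18a2 was not tested.

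**Figure D4:**
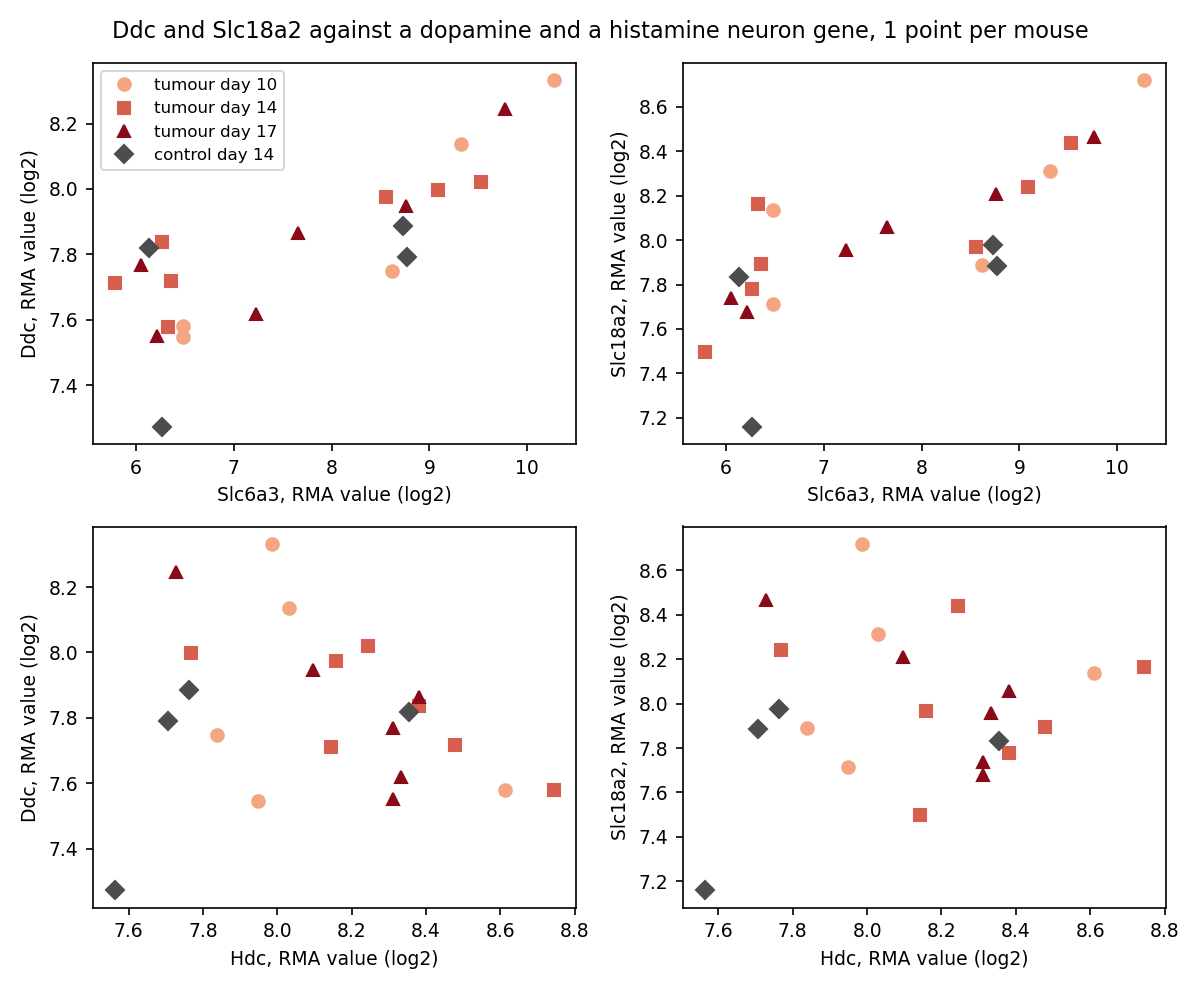
Log2 RMA value of Ddc (left) and Slc18a2 (right) on the vertical axes against the dopamine transporter gene Slc6a3 (top) and the histamine enzyme gene Hdc (bottom) on the horizontal axes, 1 point per mouse, marked by group. Both genes rise with Slc6a3 in mice of all 4 groups, and the points form no such band with Hdc over the 22 mice.

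The promoters of Slc18a2, of Th and of the upstream start of Ddc are shown because the 3 genes varied together from mouse to mouse. RefSeq (GRCm38.p6) gave a promoter for 7 of the 8 genes, and for Th. Each stretch runs from 250 bases before the transcript start to 20 after it, on the strand of the gene. Capitals mark 2 motifs searched on both strands, TGACGTCA, the cAMP response element, which reads the same on both strands, and AAAGGTCA, the element that receptors of the Nr4a family bind, or its reverse TGACCTTT.
Slc18a2, chr19:59260628-59260897, plus strand: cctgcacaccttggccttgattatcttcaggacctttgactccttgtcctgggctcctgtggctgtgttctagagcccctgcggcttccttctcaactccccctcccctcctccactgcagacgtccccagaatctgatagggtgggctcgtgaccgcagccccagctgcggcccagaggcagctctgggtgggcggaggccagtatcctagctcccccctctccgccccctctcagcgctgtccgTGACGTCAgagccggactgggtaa
Th, chr7:142899976-142900245, minus strand: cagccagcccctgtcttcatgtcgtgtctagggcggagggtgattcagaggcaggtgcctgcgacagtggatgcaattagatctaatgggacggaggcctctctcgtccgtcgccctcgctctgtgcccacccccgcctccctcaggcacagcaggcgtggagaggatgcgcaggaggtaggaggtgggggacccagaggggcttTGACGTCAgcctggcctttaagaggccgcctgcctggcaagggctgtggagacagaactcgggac
Ddc, upstream start, chr11:11898125-11898394, minus strand: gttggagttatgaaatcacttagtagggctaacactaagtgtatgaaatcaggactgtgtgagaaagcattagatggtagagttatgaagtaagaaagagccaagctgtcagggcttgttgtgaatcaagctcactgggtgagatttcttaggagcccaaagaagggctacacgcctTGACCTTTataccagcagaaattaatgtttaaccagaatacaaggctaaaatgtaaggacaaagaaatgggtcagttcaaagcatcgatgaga

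TGACGTCA began 4 bases before the start of Slc18a2 and 45 bases before that of Th, and was in neither Ddc promoter. Of 32851 promoters of that length, 1.73% held it. TGACCTTT began 73 bases before the upstream start of Ddc, and 1.42% of promoters held AAAGGTCA or its reverse. The promoter of the other Ddc start, which is not printed, held neither motif. Which Ddc start was in use in this tissue was not tested. Neither motif was in the promoters of Tph1, Tph2, Slc6a4 or Maoa. The short ETS core GGAA, bound by the family of factors that includes Fev, was found on either strand 5 times in the promoter of Tph2 and 1 time in that of Slc6a4, but 94.6% of all promoters held it. The first 2 motifs were chosen after the promoters had been read. A match is a description of letters and says nothing of binding.

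The genes most like the oxidases were others. For Maoa the highest r were those of Mcee, a methylmalonyl-CoA epimerase gene (0.70), Slc25a45, a mitochondrial carrier gene (0.68), C9orf72 (0.68), Fbxo8 (0.66) and Zfp36l2 (0.65). For Maob they were Arhgap32 (0.86), Rgs7, a regulator of G protein signalling (0.81), Acer3, a ceramidase gene (0.80), Ywhaz, a 14-3-3 gene (0.80) and Zwint (0.78). Within the 2 runs, r of Maob with Arhgap32 was 0.81 and 0.92, and that with Rgs7 was 0.03 and 0.89. Ddc went against the oxidases at r = -0.39 with Maoa and -0.39 with Maob (permutation p = 0.0741 and 0.0758, adjusted over the 21 pairs 0.318 each).

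Around these genes, lists of the pathway were read on the same fit, and limma called 0 of their members in any comparison with control. Tryptophan enters the brain on carriers of large neutral amino acids, and of 6 such genes 0 were called on each day. Slc7a5, the light chain of that carrier at the blood-brain barrier, averaged 8.73 on tumour day 10, 8.94 on day 14 and 8.99 on day 17, against 8.71 in controls. Its differences were 0.020 ± 0.077, 0.22 ± 0.07 and 0.27 ± 0.07 (SE, limma adjusted p = 0.950, 0.242 and 0.077). Slc7a8, another light chain, differed by -0.26 ± 0.10 on day 10 and by -0.040 and -0.081 on days 14 and 17. Tetrahydrobiopterin is the cofactor of the hydroxylases, and of its 6 measured genes 0 were called. Qdpr, which recycles it, differed by -0.067, -0.17 and -0.12, and Gch1, which starts its synthesis, by -0.0084, -0.086 and -0.15.

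The kynurenine pathway draws tryptophan away from serotonin, and 4 of its 11 measured genes were above background. Kyat3, which makes kynurenic acid, was above it and differed by -0.15, -0.067 and -0.33 on days 10, 14 and 17 (adjusted p on day 17 0.137). Ido1, the inducible enzyme that opens the pathway, had a mean of 3.52, below the measure, and differed by -0.071, 0.13 and 0.14. After monoamine oxidase, aldehydes are oxidised or reduced and amines are sulphated, and of 6 measured genes of these steps 0 were called. Sult1a1, a sulphotransferase, averaged 5.73 on tumour day 10, 5.99 on day 14 and 5.96 on day 17, against 5.34 in controls, with differences of 0.39 ± 0.19, 0.66 ± 0.18 and 0.62 ± 0.18 (SE, limma adjusted p = 0.474, 0.141 and 0.0996). Aldh3a2, an aldehyde dehydrogenase, differed by -0.092, -0.10 and -0.15.

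Of 5 other monoamine transporter genes, Slc6a2, the noradrenaline transporter, differed by -0.063, -0.16 and -0.17, and Slc22a2, an organic cation transporter, by 0.38, 0.17 and 0.19 on days 10, 14 and 17, with 0 called. The mean of Slc6a2 was 4.00, within 0.5 of the background measure. Aanat, which makes the precursor of melatonin from serotonin, was below background, with a mean of 3.81. Of 8 transcription factor genes of serotonin neurons besides Fev, 6 were above background and 0 were called. Among those above it, En2 had a mean of 3.91, within 0.5 of the measure. Foxa2, which midbrain dopamine neurons also use, differed by 0.32 ± 0.09, 0.054 ± 0.086 and 0.019 ± 0.089, and Lmx1b by 0.23 ± 0.10, -0.084 ± 0.096 and 0.048 ± 0.098 (SE, limma adjusted p on day 10 0.214 and 0.426). Of 9 genes of dopamine, noradrenaline and histamine neurons 0 were called, and Hnmt, which methylates histamine, differed by 0.10, 0.20 and 0.095. The list medians on days 10, 14 and 17 were -0.026, 0.037 and 0.034 for tryptophan transport, -0.030, -0.036 and -0.072 for the cofactor, 0.053, -0.00094 and 0.076 for the kynurenine pathway, 0.065, 0.018 and 0.020 for the steps after the oxidases, and 0.22, -0.011 and -0.00025 for the transcription factors. At an unadjusted p below 0.05 on days 10, 14 and 17, limma passed 1, 1 and 1 of 6 transport genes, 0, 1 and 0 of 6 cofactor genes, 2, 1 and 3 of 11 kynurenine genes, 1, 1 and 2 of 6 genes after the oxidases, 0, 1 and 1 of 5 transporters, 3, 1 and 1 of 8 transcription factors and 0, 3 and 1 of 9 genes of other amine neurons, against the 10.7%, 10.5% and 16.6% of all genes given above.

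**Figure D5:**
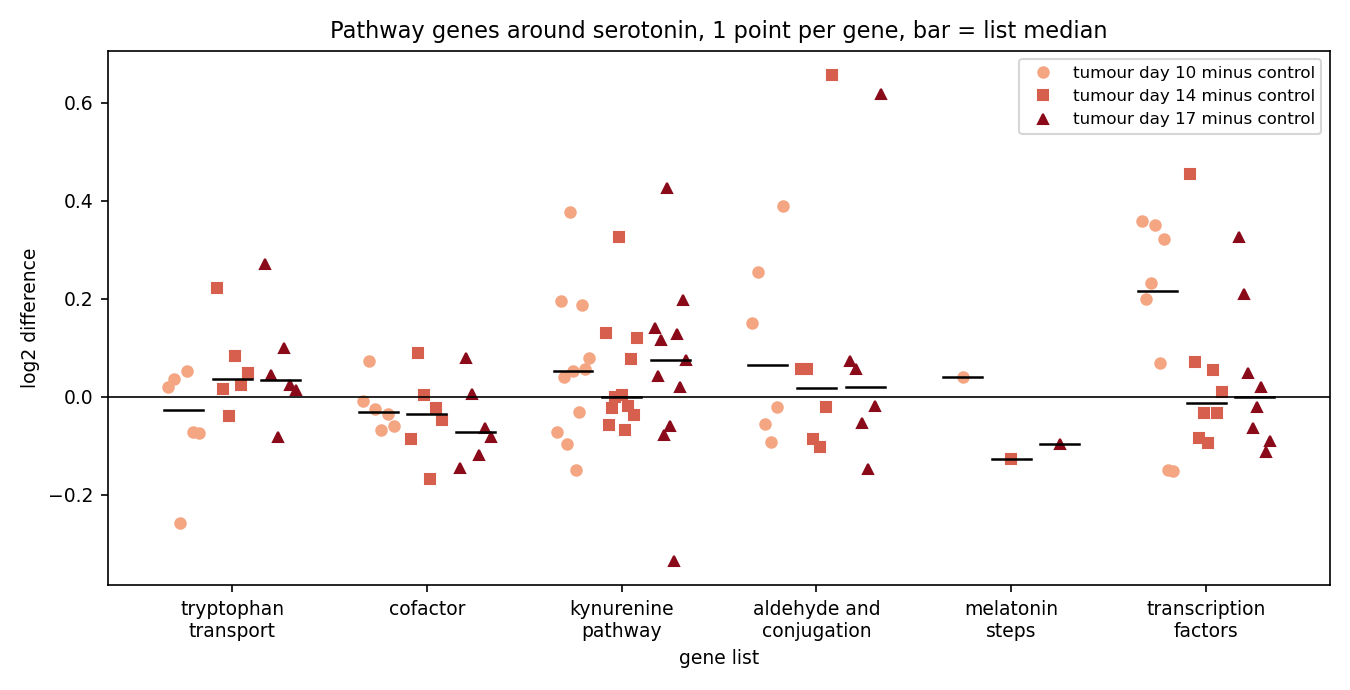
Log2 difference, tumour-bearing mice minus controls (vertical axis), of each measured gene of 6 lists around serotonin (horizontal axis) on tumour days 10, 14 and 17, with a bar at the list median. The points highest on days 14 and 17 are those of Sult1a1, at 0.66 and 0.62, and 0 of the genes shown passed the adjusted threshold.

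Cells other than neurons also hold serotonin genes. Mast cell markers were above background for 1 of 7, the receptor gene Kit, and Cpa3, Mcpt4, Cma1 and Tpsb2, which define the cells, were below it. Of 5 measured platelet markers 4 were above it, and their mean per mouse ran from 4.17 to 4.36 on tumour day 10, from 4.05 to 4.75 on day 14 and from 4.11 to 4.69 on day 17, against 3.98 to 4.34 in controls. Red cell markers had higher means in tumour-bearing mice, with 2 of the 4 listed genes measured. Of these 2, limma called 0 higher on day 10, 2 on day 14 and 2 on day 17. The shares called among all genes were 0.106%, 0.218% and 1.12%. The list mean was 5.87 ± 0.55 on day 10, 6.71 ± 0.50 on day 14 and 7.11 ± 0.59 on day 17, against 4.85 ± 0.69 in controls (SD). Tph1, which mast cells use, and Slc6a4, which platelets carry, stayed under the background measure in the same mice. A value under it does not show that an mRNA was absent. The part of mast cells, platelets and red cells in the values of the serotonin genes was not tested. With the mean of the thalamus markers as a covariate, the averaged difference of Slc18a2 was 0.27 (limma adjusted p = 0.540).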

How the data were processed

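Hypothalamic RNA of 22 mice was measured on 1 array each. The deposited table holds log2 values; per the submitters' processing notes, the authors made them with RMA, whose version and annotation are not given in the sources used here. RMA equalises value distributions between arrays, so a shift of all genes would not be seen, and it compresses differences of dim probe sets. Of 35556 probe sets, the platform annotation paired 21218 with 1 gene, and the probe set with the highest mean stood for each of 18820 genes. With no filter on low values, limma 3.58.1 (R 4.3.3) fitted 4 group means to 22 arrays (eBayes without trend, 18 residual degrees of freedom). Contrasts were tested two-sided with Benjamini-Hochberg adjustment over all genes, at a threshold of 0.05. Differences are log2, tumour minus control. Correlations used residuals from group means and 100000 resamples, over 21 pairs, as Fev gave none. The fit was tested on simulated data. The number of arrays limits the precision.

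The labels number replicates and describe single mice, and p-values measure the spread between these mice. Same-numbered samples were compared: of 28 pairs 13 correlated above 0.1, in a range from -0.19 to 0.36. Samples of unlike number were not compared, so these values cannot decide on pairing. The reported fit did not take the numbers as pairs. A replicate block gave the highest counts of genes called on days 14 and 17, at 140 and 616, against 41 and 211 in the reported fit. The genes, lists and alternatives were chosen with earlier results of these data known. Named besides the 8 genes were list members past the threshold, otherwise the 2 with the smallest F-test p per list, and the 5 genes most like each serotonin gene above background. Hdc, Th, Slc6a3 and marker genes outside that rule were named after their values were seen. Python 3.11.15 with numpy 2.4.6 and scipy 1.17.1 computed the correlations.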

Additional observations from a re-analysis of the deposited data

Results flagged for a closer look

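Of 28 groups of values, 7 genes in 4 groups, 2 held a mouse far from the others, where chance alone gives about 5% of groups. In tumour day 17, replicate 1 read 3.62 for Tph2, 0.43 above the next of 6 mice. It was also the highest of its group in Ddc and Slc18a2, and its Tph2 value lay under the background measure. Replicate 1 was likewise the highest in Ddc and Slc18a2 on tumour days 10 and 14. In Tph2 it was the highest on day 10 but not on day 14. The control numbered 1 was the highest in none of these genes and the lowest control in Tph2, at 2.83. In controls, replicate 3 read 7.27 for Ddc, 0.52 below the next of 4 mice, and it also had the lowest Slc18a2 value, 7.16. The differences of both genes without that control stand beside them above.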

How the results depend on the processing

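The count of serotonin genes called against control, between tumour days and by the F test was 0 under each alternative tried and with each array left out in turn, from 0 to 0, and 4 genes lay above background under each of the 4 other measures. Counts over all genes moved: 17 to 76 for day 10 (20 in the reported fit), 0 to 140 for day 14 (41), 81 to 616 for day 17 (211), 105 to 552 for the averaged tumour groups (121), 58 to 153 for the F test (63) and 1 to 20 between days (1). Leaving out arrays gave 0 to 25, 2 to 115, 37 to 382, 2 to 195, 7 to 106 and 1 to 13.

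Of 252 differences recomputed under other settings 21 changed sign and 0 passed the threshold, and of 616 with an array left out 20 changed sign and 0 passed. The changes of sign follow, and their cause was not tested. Maoa on day 17 was 0.026 with arrays centred on their median, 0.032 with a second quantile normalization, 0.0016 with the replicate block and 0.0055 with the thalamus covariate, and its averaged difference was 0.0070 after quantile normalization. Maob on day 17 was 0.011 with centring, 0.020 with quantile normalization and 0.022 with a run term. Added after seeing the data were each run alone and the Th and Slc6a3 covariate. In the first run alone, with 1 control, Slc6a4 was -0.11 and -0.042 on days 10 and 14 and -0.027 averaged, and Maoa 0.018, 0.031 and 0.057 on days 10, 14 and 17 and 0.035 averaged. In the second run alone Maob was 0.067 and 0.027 on days 10 and 17 and 0.026 averaged, Tph1 0.12 on day 14, and Tph2 -0.057 on day 14 and -0.0045 averaged. With an array left out, Maoa ran from -0.077 to 0.0074 on day 10, -0.078 to 0.0070 on day 14, -0.053 to 0.031 on day 17 and -0.069 to 0.015 averaged. Maob ran from -0.13 to 0.011, -0.075 to 0.017, -0.077 to 0.036 and -0.071 to 0.021, and Tph1 on day 14 from -0.11 to 0.048.

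The replicate block gave Slc18a2 an averaged difference of 0.42 (limma adjusted p = 0.144) and called 0 serotonin genes. The number of gene pairs past the adjusted threshold was 1 in all settings but the first run alone, where it was 0 and Ddc with Slc18a2 had r = 0.84 (adjusted p = 0.115, n = 9, permutation test). In the second run alone r of Tph2 was -0.0063 with Slc18a2 and -0.085 with Ddc. What can be read of Tph1, Tph2 and Slc6a4 is limited by their signal at background.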
